A study of Mus musculus with 6 samples.

Results

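The apelin system of the retina consists of 3 genes among the 31053 in the deposited mouse count tables. Apln encodes apelin and Apela encodes the peptide also called Elabela or Toddler. Both peptides are ligands of the receptor encoded by Aplnr. These genes were chosen by symbol because their measured levels differed between retinas with oxygen-induced retinopathy (OIR) and control retinas in these same data. The OIR and Ctrl values of the 3 genes are therefore given as a description, without a test. All 3 genes had UMIs in the files.

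The study compared dissociated retinas from mouse pups at P17. The OIR group was kept in 75% oxygen from P7 to P12, returned to room air for 5 days and sampled, while the Ctrl group was untreated. In this model the high oxygen stops and prunes the growth of retinal vessels, and the return to air leaves a poorly perfused retina that grows abnormal new vessels. Each group had 3 samples and each sample pooled the retinas of 2 mice, so that the spread between samples is the only measure of error. No transgene or deletion was named for these mice.

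Apelin is a secreted peptide that is cut from a longer precursor and acts on a G protein-coupled receptor at the cell surface. In growing vessels, Apln is known as a gene of tip cells, the endothelial cells that lead a sprout, and Aplnr is known in veins and in sprouting endothelium. Apela is best known from the early embryo, where it acts on the same receptor, and Apln is a known target of hypoxia-inducible factors.

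The ligand genes lie on different chromosomes and have little in common outside the end of the peptide that binds the receptor. Apela (ENSMUSG00000079042) lies on the minus strand at chr8:65028417-65037336 of build GRCm38, and its transcript Apela-202 has 4 exons and 975 bases. Apln (ENSMUSG00000037010) lies on the minus strand at chrX:48025146-48034853, with 3 exons and 3149 bases in transcript Apln-201. Aplnr (ENSMUSG00000044338) lies on the plus strand at chr2:85136225-85139923, in 1 exon of 3699 bases. The libraries were read from the 3' end of the transcripts, which for Apela is the last exon at chr8:65028417-65028991. A noncoding gene on the same strand, Gm45886, is not in the count table. Its span, chr8:65014856-65037096, includes that last exon. Whether any of its reads were counted as Apela was not tested.

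The coding sequences show how short the ligands are. The 11 last codons of Apela and the 13 last codons of Apln are in capitals, since these ends are the shortest peptides in wide use as receptor agonists. The Apela sequence spans chr8:65035666-65036965 in 2 coding exons and has 165 bases, or 54 codons before the stop. The Apln sequence spans chrX:48028299-48034505 in 2 coding exons and has 234 bases, or 77 codons before the stop.
Apela: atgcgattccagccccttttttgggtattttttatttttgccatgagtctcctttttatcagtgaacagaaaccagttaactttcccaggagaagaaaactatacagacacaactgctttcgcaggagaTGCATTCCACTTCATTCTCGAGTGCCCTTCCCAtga
Apln: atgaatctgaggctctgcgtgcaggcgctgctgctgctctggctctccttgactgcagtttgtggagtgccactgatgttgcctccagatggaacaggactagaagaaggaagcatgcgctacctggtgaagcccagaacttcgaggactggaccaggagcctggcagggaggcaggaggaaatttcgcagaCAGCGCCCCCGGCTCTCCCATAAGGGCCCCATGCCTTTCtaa
The promoter windows of Apela and Apln in RefSeq ran from 250 bases before to 50 bases after the start. They were searched on both strands for ACGTG, a form of the core of the site bound by hypoxia-inducible factors. There were 0 matches in either window, while 19.6% of 32851 promoters held a match. Other forms of the core and sequence outside the windows were not searched, so sites at these genes are not excluded.

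Of the 47631 barcodes deposited, 38569 passed the limits of the study, 19028 from OIR and 19541 from Ctrl. Every deposited sample held between 15788524 and 42606878 unique molecular identifiers (UMIs), each of which counts 1 captured RNA molecule. The labels call the material retinal endothelial cells, but rod-like cells made up 33.3% to 87.2% of the cells kept per sample and endothelial cells made up 0.0268% to 2.06%. Both replicate 1 samples stood apart, with 48.6% and 33.3% rod-like cells where the other 4 samples had at least 74.2%. Any pair of samples shared between 3 and 17 barcodes. Cells were grouped by clustering and named by marker genes, with "-like" added. Rod-like (25836), cone-like (1922), Müller-like (3485) and vascular endothelial (VEC)-like (196) cells carried most of the apelin system. Levels are given as UMIs of the gene per 1000000 UMIs summed over the cells of a type in a sample (CPM), with exact 95% Poisson intervals that cover counting error only. By sex-linked RNA, Ctrl replicates 2 and 3 were female, with Xist at 1798 and 1998 CPM and Y-linked genes at 0 and 0.0682 CPM. Ctrl replicate 1 and the OIR samples were male, with Xist at most 0.493 CPM and Y-linked genes at 213 CPM or more. Sex thus differed in part between the groups, and its part was not tested.

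By the number of UMIs, the 3 genes lay mainly in different cell types. Cone-like cells held 47.4% of the Apela UMIs of the kept cells and rod-like cells held 34.9%. Müller-like cells, the radial glia of the retina, held 87.7% of the Apln UMIs. VEC-like cells held 92.9% of the Aplnr UMIs. Among the kept cells, most UMIs of both ligands thus lay outside the few vessel cells, and nearly all UMIs of the receptor lay in them. By level, Apln was also found in VEC-like cells. In Ctrl replicates 1, 2 and 3 it stood at 16.8, 104 and 17.2 CPM there, against 12.6, 14.3 and 10.9 CPM in the Müller-like cells. These VEC-like values rest on 19, 6 and 1 UMIs, too few to order the types. OIR replicate 1 had 36 UMIs at 175 CPM in VEC-like cells, above its Müller-like cells. OIR replicates 2 and 3 had 0 Apln UMIs in VEC-like cells, but these were 2 cells each, with 8480 and 3421 UMIs in all. That is too few to order the types there. Without the upper limit on detected genes, Apln stood at 74.3 and 548 CPM in the VEC-like cells of these samples.

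**Figure D1:**
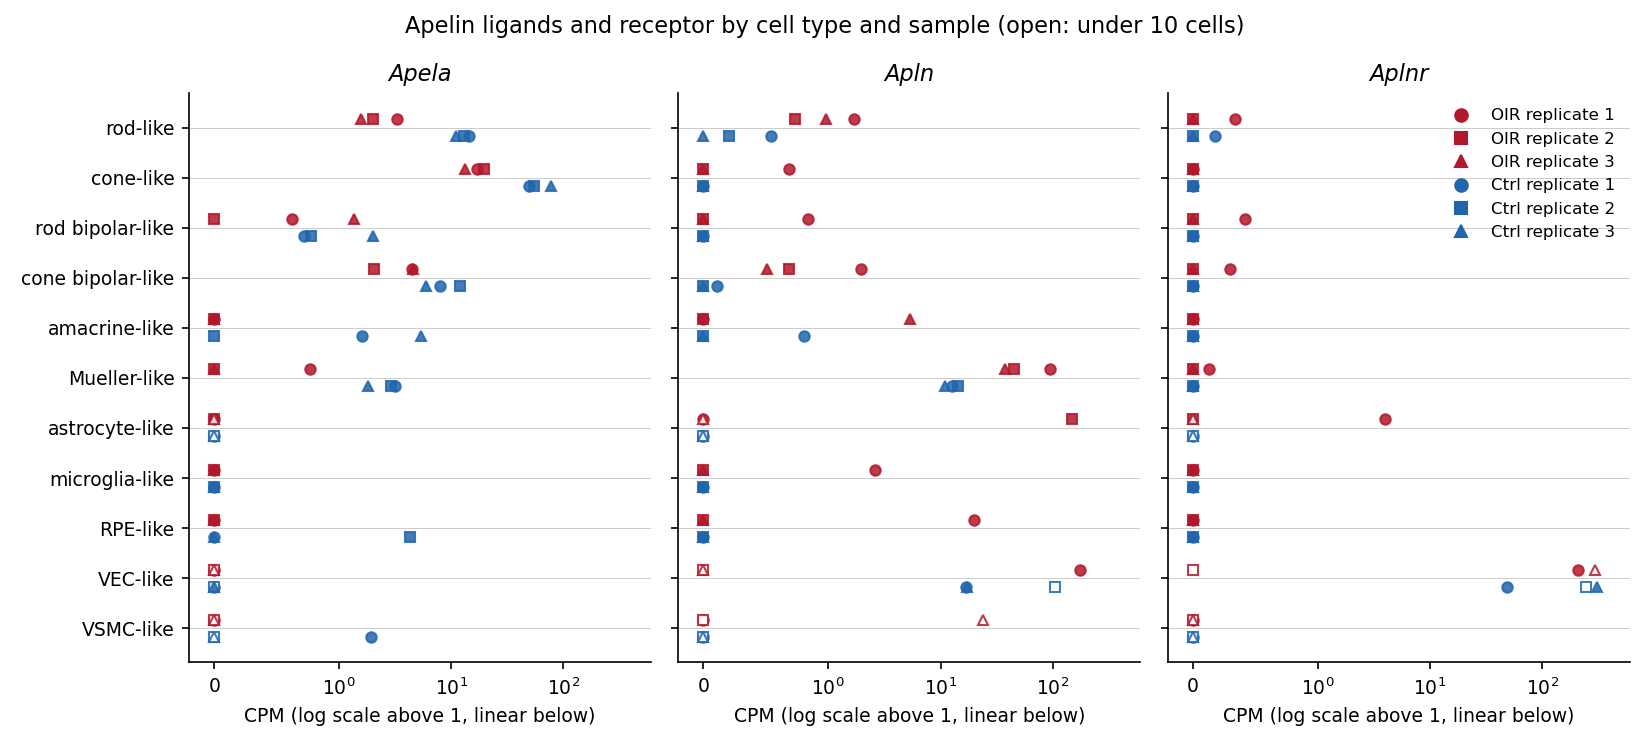
Level of Apela, Apln and Aplnr (CPM, log scale above 1 and linear below) in 11 cell types, with 1 point for each sample, OIR in red and Ctrl in blue, and open points for fewer than 10 cells. Apela was highest in cone-like cells, Apln in Müller-like and VEC-like cells with a single high astrocyte-like sample, and Aplnr in VEC-like cells.

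Apela was lower in the cone-like cells of every OIR sample than in those of every Ctrl sample. It stood at 17.2, 19.8 and 13.4 CPM in OIR replicates 1, 2 and 3 and at 49.2, 55.0 and 77.1 CPM in Ctrl replicates 1, 2 and 3. The groups did not overlap, and neither did the counting intervals, of which the highest in OIR ended at 27.2 CPM and the lowest in Ctrl began at 43.6 CPM. The mean was 16.8 ± 3.23 CPM (SD, n = 3) in OIR and 60.4 ± 14.7 CPM (SD, n = 3) in Ctrl, or 3.60-fold higher in Ctrl. Of all genes tested in cone-like cells, 5.72% also had every OIR sample below every Ctrl sample, and since Apela was selected on this contrast nothing is read from its place among them.

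The UMIs behind these levels were few per cell but spread over many cells. The OIR samples held 50, 38 and 20 Apela UMIs in 43, 29 and 18 of 376, 211 and 215 cone-like cells. In the Ctrl samples 277, 94 and 48 UMIs were found in 208, 58 and 35 of 844, 183 and 93 cells. No cone-like cell held more than 6 Apela UMIs. The share of cone-like cells with an Apela UMI was 11.2% on average in OIR and 31.3% in Ctrl. With each cell thinned to 1000 UMIs, so that depth was equal, the shares were 1.45% ± 0.347 (SD, n = 3) and 5.84% ± 1.47 (SD, n = 3), again without overlap.

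Rod-like cells showed the same order at a lower level. Apela stood at 3.29, 2.01 and 1.59 CPM in OIR replicates 1, 2 and 3, below the 14.4, 13.02 and 11.01 CPM of Ctrl replicates 1, 2 and 3, from 29, 22 and 21 against 80, 129 and 107 UMIs. The means were 2.297 ± 0.887 CPM and 12.8 ± 1.69 CPM (SD, n = 3 each), or 5.57-fold higher in Ctrl. Every OIR rod sample was below every Ctrl rod sample, which held for 4.59% of all genes tested in rod-like cells. The share of rod-like cells with an Apela UMI was 0.548% in OIR and 2.44% in Ctrl on average, and 0.223% and 1.303% at 1000 UMIs per cell.

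Free RNA in the droplets can put a UMI of a gene into a cell that does not make it. Rod bipolar-like cells were read for Apela beside the rod-like cells, but they were deeper and cannot give the background of rod-like cells. At 1000 UMIs per cell, Apela was found in 0% to 0.117% of rod bipolar-like cells in the OIR samples and in 0.0686% to 0.340% in the Ctrl samples. The 0 of 185 rod bipolar-like cells in OIR replicate 2 allow a share of up to 1.62% before thinning. The rod-like shares lay above those of the same sample in each case, at 0.144% to 0.345% in OIR and 1.13% to 1.45% in Ctrl, with the smallest distance in OIR replicate 3 (0.144% against 0.117%). The median depth of rod bipolar-like cells was 6422 to 10271 UMIs, against 1403 to 3083 UMIs for rod-like cells. Thinning a deeper cell also thins its free RNA. The shallower Müller-like cluster, cluster 6, had medians of 1614 to 1929 UMIs in Ctrl. At 1000 UMIs per cell it held Apela in 0.591%, 1.69% and 0.0957% of cells in Ctrl replicates 1, 2 and 3, from 3, 5 and 1 UMIs. In OIR these shares were 0.0431%, 0% and 0%. The part of free RNA in the rod-like values was not tested. The 6 cone markers summed to 566, 93.4 and 99.7 CPM in the OIR rod-like sums and to 499.99, 53.6 and 55.0 CPM in the Ctrl rod-like sums, lowest in Ctrl replicates 2 and 3. Their part in the rod-like Apela values was not tested.

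Cone-like cells were then divided by the opsin they carried most of, Opn1sw of the short-wavelength pigment or Opn1mw of the medium-wavelength pigment. This comparison lies within each sample, did not enter the choice of the genes and was added after the data were seen. Apela was higher in the cells with more Opn1mw in 6 of 6 samples. From one class to the other it went from 13.9 to 21.8, from 13.2 to 32.2 and from 6.95 to 25.5 CPM in OIR replicates 1, 2 and 3, and in Ctrl replicates 1, 2 and 3 from 33.4 to 61.5, from 29.8 to 79.4 and from 54.9 to 95.2 CPM. The mean difference was 27.2 ± 15.4 CPM (SD, n = 6), and the exact two-sided sign-flip permutation test gave p = 0.03125, the smallest that 6 samples allow. At 1000 UMIs per cell the shares were 2.24% and 5.16%, with the same order in 6 of 6 samples. The part of other differences between the classes was not tested.

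OIR and Ctrl averages were also taken within both opsin classes, where each OIR sample held 7 to 25 Apela UMIs per class. In cone-like cells with more Opn1sw, Apela averaged 11.3 ± 3.82 CPM in OIR and 39.4 ± 13.5 CPM in Ctrl (SD, n = 3 each). In those with more Opn1mw it averaged 26.5 ± 5.25 and 78.7 ± 16.9 CPM. The folds of 3.47 and 2.97 were below the 3.60 of the undivided cells. The share of cone-like cells with more Opn1mw was itself lower in OIR, at 40.4%, 38.4% and 34.4%, than in Ctrl, at 56.9%, 51.4% and 52.7%. The part of this share in the undivided values was not tested.

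**Figure D2:**
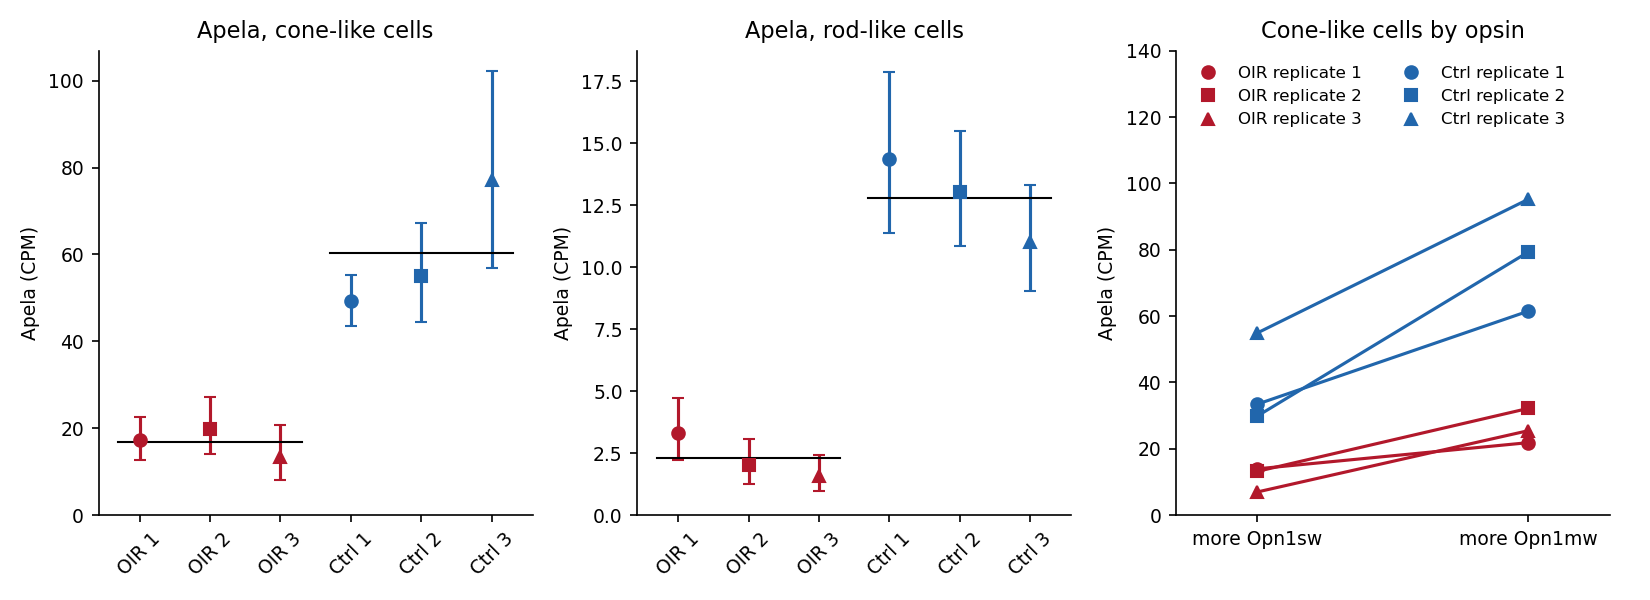
Apela in cone-like and rod-like cells (left and middle, CPM with exact 95% Poisson intervals and group means as lines) and in cone-like cells divided by opsin (right, CPM, 1 line for each sample). The 3 OIR samples lie below the 3 Ctrl samples in both cell types, and each line rises from the cells with more Opn1sw to those with more Opn1mw.

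Outside the photoreceptors, Apela was found mainly in cone bipolar-like cells, the second-order neurons of the cone pathway, which held 12.4% of its UMIs. The level there was 4.49, 2.07 and 4.61 CPM in OIR and 8.03, 12.01 and 6.03 CPM in Ctrl. These values came from no more than 30 UMIs in any sample other than Ctrl replicate 1, which had 76. The share of all genes with such an order was not counted in these cells, so nothing is read from it. In the Ctrl samples the order of the sums was cone-like above rod-like above cone bipolar-like. Cone-like cells at 49.2 to 77.1 CPM stood clear of rod-like cells at 11.01 to 14.4 CPM, whereas rod-like and cone bipolar-like cells, at 6.03 to 12.01 CPM, overlapped. In OIR the cone bipolar-like mean of 3.72 ± 1.44 CPM was above the rod-like mean of 2.297 ± 0.887 CPM (SD, n = 3 each). The cone bipolar-like clusters differed among themselves, but on few UMIs outside Ctrl replicate 1. Cluster 8 held 42, 12 and 4 Apela UMIs in Ctrl replicates 1, 2 and 3, at 21.3, 32.6 and 11.2 CPM, above the rod-like level of the same sample. Cluster 11 stood at 9.90, 18.7 and 16.3 CPM, from 17, 2 and 2 UMIs in 303, 18 and 26 cells. Clusters 9, 10 and 12 lay between 0 and 3.40 CPM, with only 18 to 34 cells each in Ctrl replicates 2 and 3. Values of cluster 18, with 230 cells, are not given here. In OIR, clusters 8 and 11 stood at 2.18 to 8.52 CPM, clusters 9 and 10 at 0 to 1.32 CPM, and cluster 12 at 6.23, 0 and 24.3 CPM, the last from 5 UMIs in 28 cells. Müller-like cells followed at 1.82 to 3.20 CPM in Ctrl, from 28 UMIs, and averaged 0.258 CPM in OIR, from 6 UMIs. Apela had 0 UMIs in the 196 VEC-like, 56 astrocyte-like and 244 microglia-like cells. The VEC-like barcodes with more than 5000 detected genes, which were not kept, held 2 Apela UMIs in OIR and 1 in Ctrl.

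Apln was higher in the Müller-like cells of every OIR sample than in those of every Ctrl sample. It stood at 93.8, 45.02 and 37.3 CPM in OIR replicates 1, 2 and 3 and at 12.6, 14.3 and 10.9 CPM in Ctrl replicates 1, 2 and 3. The OIR samples differed by more among themselves than the Ctrl samples, and replicate 1 was the highest. The means were 58.7 ± 30.6 CPM and 12.6 ± 1.68 CPM (SD, n = 3 each), or 4.66-fold higher in OIR. The difference of 46.1 CPM fell to 28.6 CPM without OIR replicate 1. Among all genes tested in Müller-like cells, 14.0% had every OIR sample above every Ctrl sample, so that lack of overlap alone was common there.

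The UMIs numbered 728, 144 and 115 in 937, 514 and 581 OIR Müller-like cells and 71, 34 and 18 in 901, 292 and 260 Ctrl cells. An Apln UMI was found in 31.7%, 18.9% and 12.4% of OIR cells and in 7.21%, 7.88% and 6.54% of Ctrl cells, and at 1000 UMIs per cell in 4.55% and 1.06% on average. OIR replicate 1 had 41 cells with 5 or more Apln UMIs, OIR replicates 2 and 3 had 1 and 3, and Ctrl replicate 2 alone among the controls had 1. The highest cell held 12. Apln is X-linked, and Xist, the RNA of the inactive X, stood at 1798 and 1998 CPM in Ctrl replicates 2 and 3 and at no more than 0.493 CPM in the other 4 samples. Ctrl replicate 1, the only Ctrl sample with low Xist, had Apln at 12.6 CPM, and the OIR samples had 37.3 to 93.8 CPM. With a single such Ctrl library, the part of sex in the Apln values was not tested, nor was it in the other values.

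Hypoxia reporter genes were counted in the same cells, since Apln is one of the genes that low oxygen is known to raise. Of 11 such genes, 10 were tested in Müller-like cells, and edgeR's quasi-likelihood test called 4 higher in OIR and 0 lower, where 1.51% of all genes tested were called higher. Adm, which encodes the vessel-acting peptide adrenomedullin, stood at 151, 77.8 and 12.3 CPM in OIR and at 1.78, 0.42 and 3.04 CPM in Ctrl, with a log2 fold change of 5.57 ± 0.94 (SE) and an edgeR adjusted p of 0.0149. Bnip3, a mitophagy receptor, stood at 193, 204 and 197 against 75.2, 111 and 108 CPM (log2 fold change 0.96, edgeR adjusted p = 0.0152). Egln3, a prolyl hydroxylase that marks hypoxia-inducible factors for decay, and Pgk1, a glycolytic enzyme, were the other called genes, with log2 fold changes of 2.43 and 0.69 and edgeR adjusted p-values of 0.0278 and 0.0382. Vegfa, the main growth factor of retinal vessels, stood at 822, 571 and 476 against 264, 375 and 477 CPM, and edgeR's adjusted p was 0.238. Without OIR replicate 1, Ctrl replicate 2 or Ctrl replicate 3 only 1 of these genes was called, and without OIR replicate 3 there were 2.

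Within each sample, the Müller-like cells with an Apln UMI carried a higher sum of these reporters than the cells without. This split was added after the data were seen and did not enter the choice of the genes. The 11 reporters together stood at 4982, 4044 and 4540 CPM in the cells with Apln of OIR replicates 1, 2 and 3 and at 2953, 2881 and 2858 CPM in the cells without. In Ctrl replicates 1, 2 and 3 they stood at 2337, 2603 and 2654 CPM with Apln and at 1846, 2162 and 2400 CPM without. The difference was positive in 6 of 6 samples, with a mean of 1010 ± 732 CPM (SD, n = 6) and an exact two-sided sign-flip permutation p of 0.03125, the smallest that 6 samples allow. Cells with an Apln UMI were also deeper, with a median of 10889 against 5466 UMIs on average. In the deeper Müller-like cluster alone the medians were 11519 and 9328 UMIs, and the reporters were higher by 1069 CPM, in 6 of 6 samples (exact permutation p = 0.03125). Over all Müller-like cells, Vegfa alone averaged 751 CPM with and 405 CPM without Apln, higher in 6 of 6 samples. Slc2a1, a glucose transporter, and Pgk1 were also higher in 6 of 6, and Adm, Ankrd37, Bnip3, Pdk1 and Ldha in 5 of 6. Egln3 was higher in 4 of 6, and Ndrg1 and Car9 in 2 of 6, with a mean difference of -2.68 CPM for Ndrg1. In the deeper cluster alone, Slc2a1 was higher in 4 of 6 and Ndrg1 in 4 of 6, with a mean difference of 3.18 CPM for Ndrg1. The counts of the other genes were the same there.

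**Figure D3:**
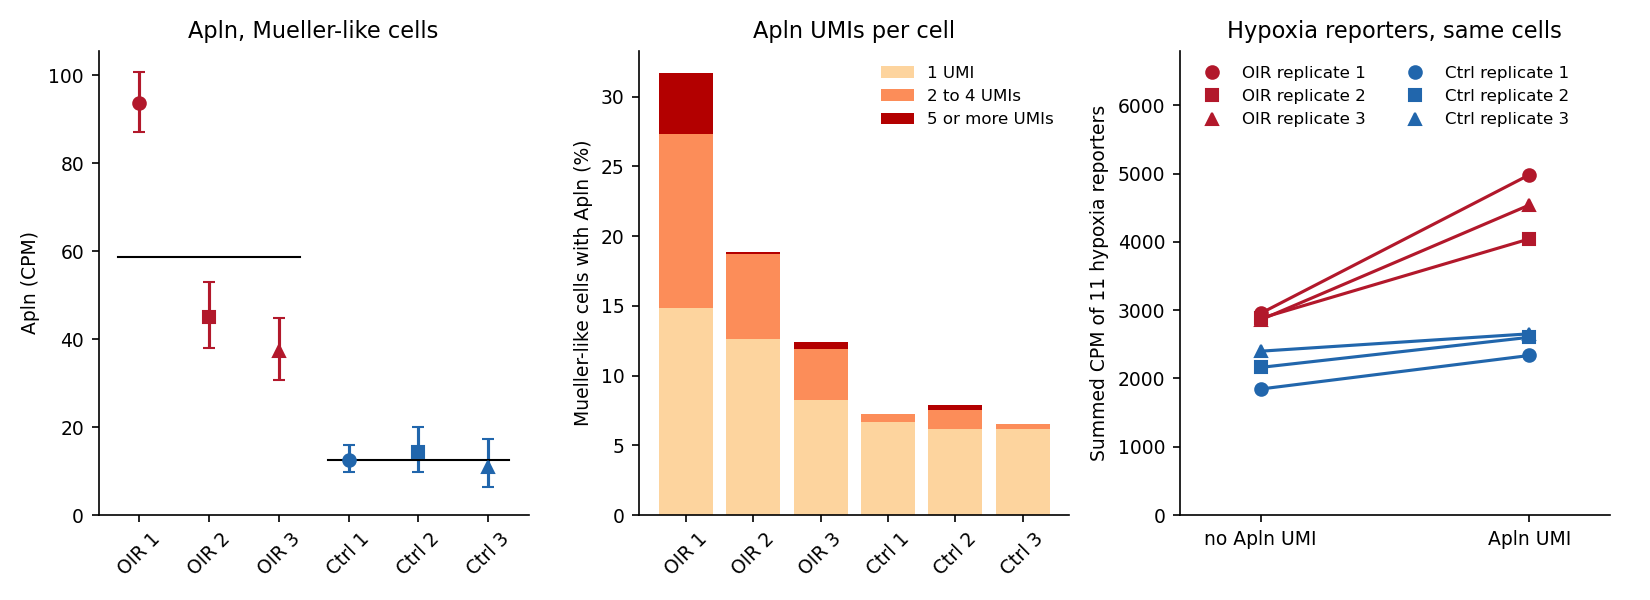
Apln in Müller-like cells (left, CPM with exact 95% Poisson intervals and group means as lines), percent of Müller-like cells with 1, 2 to 4 and 5 or more Apln UMIs (middle) and summed CPM of 11 hypoxia reporters in Müller-like cells without and with an Apln UMI (right, 1 line for each sample). The OIR samples lie at 37.3 to 93.8 CPM and the Ctrl samples at 10.9 to 14.3 CPM, and the reporter sum is higher with Apln in each sample.

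Apln outside Müller-like and VEC-like cells was scarce. In OIR replicate 2 there were 25 UMIs in 4 of 11 astrocyte-like cells, or 148 CPM, and 0 UMIs in the astrocyte-like cells of the other 5 samples. Rod-like cells averaged 1.14 ± 0.504 CPM in OIR and 0.247 ± 0.272 CPM in Ctrl. Cone-like cells, where Apela was highest, held 2 Apln UMIs in all.

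Aplnr and Apln in VEC-like cells rested on few cells. Only 25, 2 and 2 such cells were kept from OIR replicates 1, 2 and 3, and 147, 4 and 16 from Ctrl replicates 1, 2 and 3. Aplnr had 43, 0 and 1 UMIs in OIR and 55, 14 and 18 UMIs in Ctrl. That gave 209, 0 and 292 CPM in OIR and 48.7, 243 and 309 CPM in Ctrl, and the groups overlapped. With 0 UMIs in the 2 cells of OIR replicate 2, the exact 95% Poisson interval reached up to 435 CPM. No difference in Aplnr was detectable at this depth. Fewer endothelial cells and less RNA per cell cannot be told apart in the sum over a retina.

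Apln in VEC-like cells had 36, 0 and 0 UMIs in OIR and 19, 6 and 1 UMIs in Ctrl. The levels of 175, 0 and 0 CPM and of 16.8, 104 and 17.2 CPM overlapped. OIR replicate 1 was the highest sample, with 19 of its 36 UMIs in a single cell. The marker sums of the VEC-like cells, over 9 endothelial genes, lay between 8520 and 15279 CPM in 5 samples and at 1462 CPM in OIR replicate 3, whose 2 cells also carried 11693 CPM of rod markers.

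In the samples where it removed VEC-like barcodes, the limit of 5000 detected genes removed those with the most UMIs of both transcripts. Without it, 426 barcodes were added and 65 of them were most like the VEC-like clusters, 19 from OIR and 46 from Ctrl. VEC-like cells then numbered 41, 3 and 4 in OIR and 193, 4 and 16 in Ctrl. Aplnr rose to 207, 3 and 48 UMIs in OIR and to 153, 14 and 18 in Ctrl, and Apln to 182, 5 and 157 in OIR and to 72, 6 and 1 in Ctrl. As CPM, Apln stood at 167, 74.3 and 548 CPM in OIR and at 24.5, 104 and 17.2 CPM in Ctrl, and Aplnr at 190, 44.6 and 168 CPM and at 52.1, 243 and 309 CPM. The groups overlapped for both genes. Against the kept cells, Apln and Aplnr fell from 175 and 209 CPM in OIR replicate 1, and Aplnr fell from 292 CPM in OIR replicate 3. Apln rose from 0 CPM in OIR replicates 2 and 3, and Aplnr from 0 CPM in OIR replicate 2. Both rose in Ctrl replicate 1, from 16.8 and 48.7 CPM. Single barcodes carried much of Apln, with 126 of the 157 UMIs of OIR replicate 3 in 1 barcode and 90 of the 182 of OIR replicate 1 in another. The cells with both ligand and receptor numbered 11, 1 and 2 in OIR and 12, 2 and 1 in Ctrl.

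**Figure D4:**
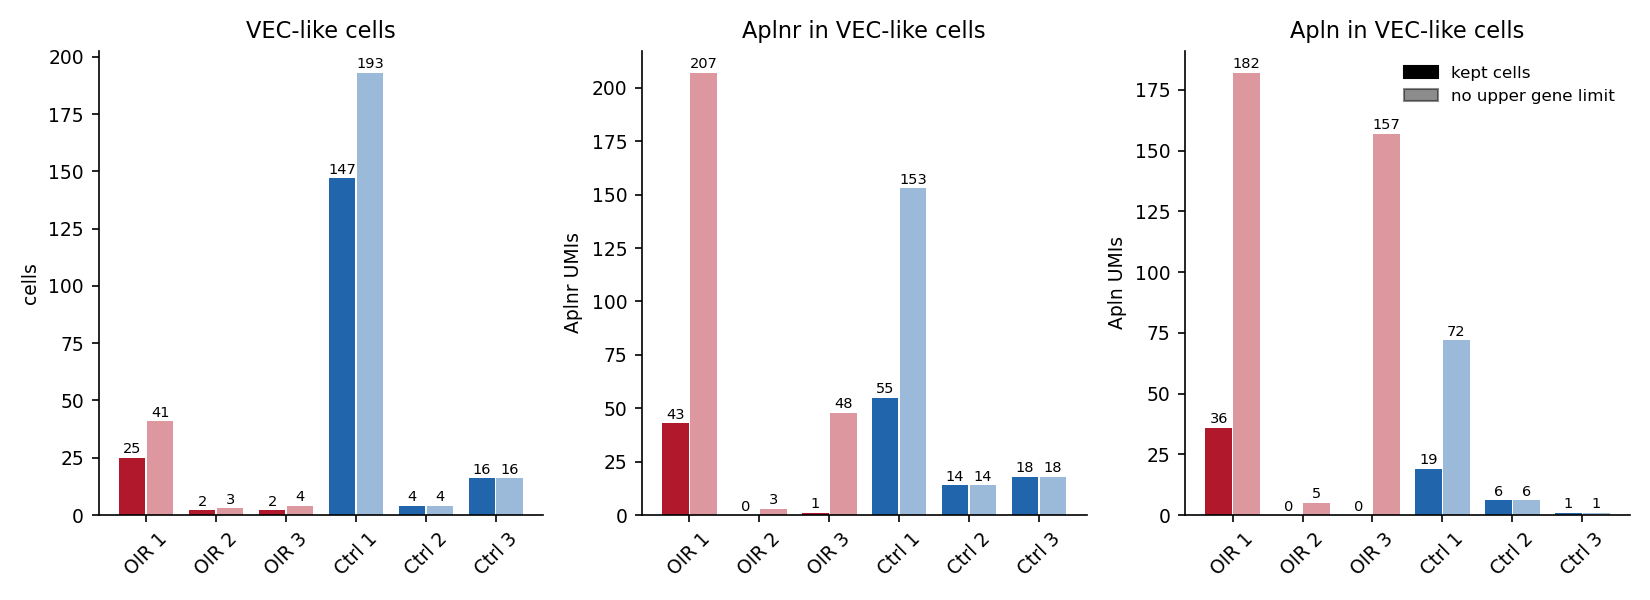
Number of VEC-like cells (left), Aplnr UMIs (middle) and Apln UMIs (right) in each sample, in the cells kept at 5000 detected genes at most (dark bars) and without that limit (light bars). In OIR replicate 3 the added cells bring Apln from 0 to 157 UMIs and Aplnr from 1 to 48 UMIs, while Ctrl replicates 2 and 3 do not change.

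Vessel subtype genes were then compared in the VEC-like cells with and without each transcript, without the gene limit. With few cells outside both replicate 1 samples these are values of 2 samples, with no test. The tip cell list summed to 3370 CPM in the 17 cells with Apln and 3515 CPM in the 24 cells without it in OIR replicate 1. In Ctrl replicate 1 it summed to 2015 CPM in 15 cells with and 2291 CPM in 178 cells without. Its members did not move as one. Igfbp3, the member with the most UMIs, which encodes a binding protein of insulin-like growth factors, stood at 1077 against 1695 CPM in OIR replicate 1 and at 957 against 1305 CPM in Ctrl replicate 1. Cd34, a sialomucin of sprout tips, stood at 1101 against 930 CPM and at 512 against 518 CPM. Pdgfb, the factor that recruits pericytes, stood at 263 against 241 CPM and at 311 against 334 CPM, and Nid2, a basement membrane protein, at 232 against 189 CPM and at 98.8 against 51.3 CPM.

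Esm1, Angpt2 and Cxcr4, tip cell genes chosen after their values were seen, were higher in the cells with Apln in both samples. Esm1, a secreted proteoglycan, stood at 86.9 against 6.10 CPM in OIR replicate 1 and at 16.2 against 4.20 CPM in Ctrl replicate 1. Angpt2, a ligand that destabilises vessels, stood at 236 against 79.3 CPM and at 44.9 against 15.5 CPM. Cxcr4, a chemokine receptor, stood at 35.6 against 3.05 CPM and at 39.5 against 8.82 CPM. Some of these values rest on few UMIs. Esm1 had 66 against 2 UMIs in OIR replicate 1 and 9 against 10 in Ctrl replicate 1. Cxcr4 had 27 against 1 and 22 against 21 UMIs. The sum of the whole list and Igfbp3 went the other way in both samples, and others of the list did so in 1 of the samples. Kcne3, a potassium channel subunit, stood at 46.1 against 131 CPM in OIR replicate 1, and Unc5b, a netrin receptor, at 14.4 against 42.9 CPM in Ctrl replicate 1. The cells with Apln were far deeper, with medians of 38422 against 4181 UMIs and of 36847 against 8586 UMIs, and the part of depth in these values was not tested.

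Cells with Aplnr had a lower sum of the artery list and a higher sum of the vein list than cells without it in both samples. The artery list stood at 331 CPM in 19 cells with Aplnr and 1464 CPM in 22 cells without in OIR replicate 1, and at 117 and 667 CPM in 57 and 136 cells of Ctrl replicate 1. The vein list stood at 474 against 329 CPM and at 1201 against 815 CPM. Over all VEC-like cells of the 6 samples, Gja4, a gap junction protein of arteries, stood at 53.2 CPM with Aplnr and at 274 CPM without, and Vwf, the von Willebrand factor, at 542 and 426 CPM. Vcam1, an adhesion molecule of the vein list, went the other way, at 24.0 and 91.0 CPM. It did so in Ctrl replicate 1, at 39.8 against 114 CPM, but not in OIR replicate 1, at 6.75 against 2.88 CPM from 5 and 1 UMIs. The cells with Aplnr were deeper, with medians of 31257 against 3785 UMIs in OIR replicate 1 and of 20448 against 7939 UMIs in Ctrl replicate 1, and the part of depth in these values was not tested. The capillary list stood at 1241 against 1810 CPM and at 3808 against 4007 CPM. The hypoxia reporters, which were higher with Apln in Müller-like cells, summed to 2443 CPM in VEC-like cells with Apln and to 2506 CPM in those without in OIR replicate 1. The same sums were 4420 and 5777 CPM for Ctrl replicate 1. Slc2a1 was the largest member, at 1368 against 1576 CPM in OIR replicate 1 and at 2981 against 4546 CPM in Ctrl replicate 1. Slc2a1 and Ndrg1 were lower with Apln in both samples. Adm, Ankrd37, Egln3 and Ldha were higher in both, with Adm at 65.8 against 0 CPM and at 284 against 98.3 CPM. The other reporters went opposite ways in these samples. The part of depth was not tested here either.

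The other genes of the pathway, 41 in 4 lists, were tested in the 4 cell types with edgeR's quasi-likelihood test over all genes. Of the 3 apelin genes, Apela passed the filter on low counts in rod-like and cone-like cells, Apln in Müller-like cells and Aplnr in VEC-like cells. In rod-like cells 34 pathway genes were tested, 1 was called lower in OIR and 0 higher, and 2.00% of all 11677 genes tested were called. The called gene was Mef2c, a transcription factor kept in check by the histone deacetylases that apelin signaling acts on in endothelium. Mef2c stood at 34.5, 29.4 and 38.3 CPM in OIR and at 110, 94.8 and 72.8 CPM in Ctrl, with a log2 fold change of -1.59 ± 0.17 (SE) and an edgeR adjusted p of 0.00537. The groups did not overlap. Without Ctrl replicate 2 the edgeR adjusted p was 0.0520. In rod-like sums equal replicate numbers went together, but so did replicates 2 and 3 across the groups. With a block for the number, edgeR called 3 pathway genes lower, Mef2c, Hdac5 and Arnt, while over all genes it called 579 higher and 535 lower.

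In cone-like cells 0 of 25 pathway genes tested were called by edgeR, against 1.29% of all genes, and 7 had an unadjusted p under 0.05, as did 1058 of all 9398 genes tested. DESeq2 also called 0. Mef2c stood at 24.4, 33.9 and 43.5 CPM in the OIR cone-like sums and at 16.9, 25.1 and 16.1 CPM in Ctrl (log2 fold change 0.71, edgeR adjusted p = 0.189). In Müller-like cells edgeR called 0 of 33, against 2.53% of all genes, with 6 under an unadjusted p of 0.05, as were 1747 of all 11532 genes, and DESeq2 called 1, Gnao1, lower (DESeq2 adjusted p = 0.0358). Gnao1, an alpha subunit of an inhibitory G protein, stood at 122, 122 and 88.3 CPM in OIR and at 178, 145 and 169 CPM in Ctrl, with an edgeR adjusted p of 0.0819. In VEC-like cells edgeR called 0 of 9, against 0.315% of all 951 genes tested, with 3 (Klf2, Mef2a and Tek) under an unadjusted p of 0.05, as were 86 of all genes, and DESeq2 called 0.

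The median log2 fold change of the tested pathway genes was 0.14 in rod-like, 0.01 in cone-like, 0.04 in Müller-like and -1.08 in VEC-like cells. The median over all genes tested was 0.00, 0.00, -0.01 and -0.18 in the same order. The VEC-like median rests on 9 pathway genes and on sums of 2 cells each in OIR replicates 2 and 3. A gene could also pass the filter on the sums of a single group. Nothing is therefore read from the VEC-like medians. As plain CPM, without the scaling of edgeR, the median log2 ratio of all genes was 0.158 in rod-like and -0.01 in VEC-like cells, so that CPM values of OIR rods read slightly high against Ctrl rods. Apela and Mef2c were lower in OIR rod-like cells, and the part of this shift in their CPM values was not tested.

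Among the regulators of apelin expression, 0 of 7 tested in Müller-like cells were called. They included Hif1a, the oxygen-regulated subunit of the hypoxia-inducible factor, Epas1, its relative, and Notch1, a receptor that restrains sprouting. Angpt1, Tek and Dll4, ligands and a receptor of vessel growth, did not pass the filter there. Of the enzymes that cut or break down apelin, Furin and Prcp were tested in Müller-like cells and neither was called.

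**Figure D5:**
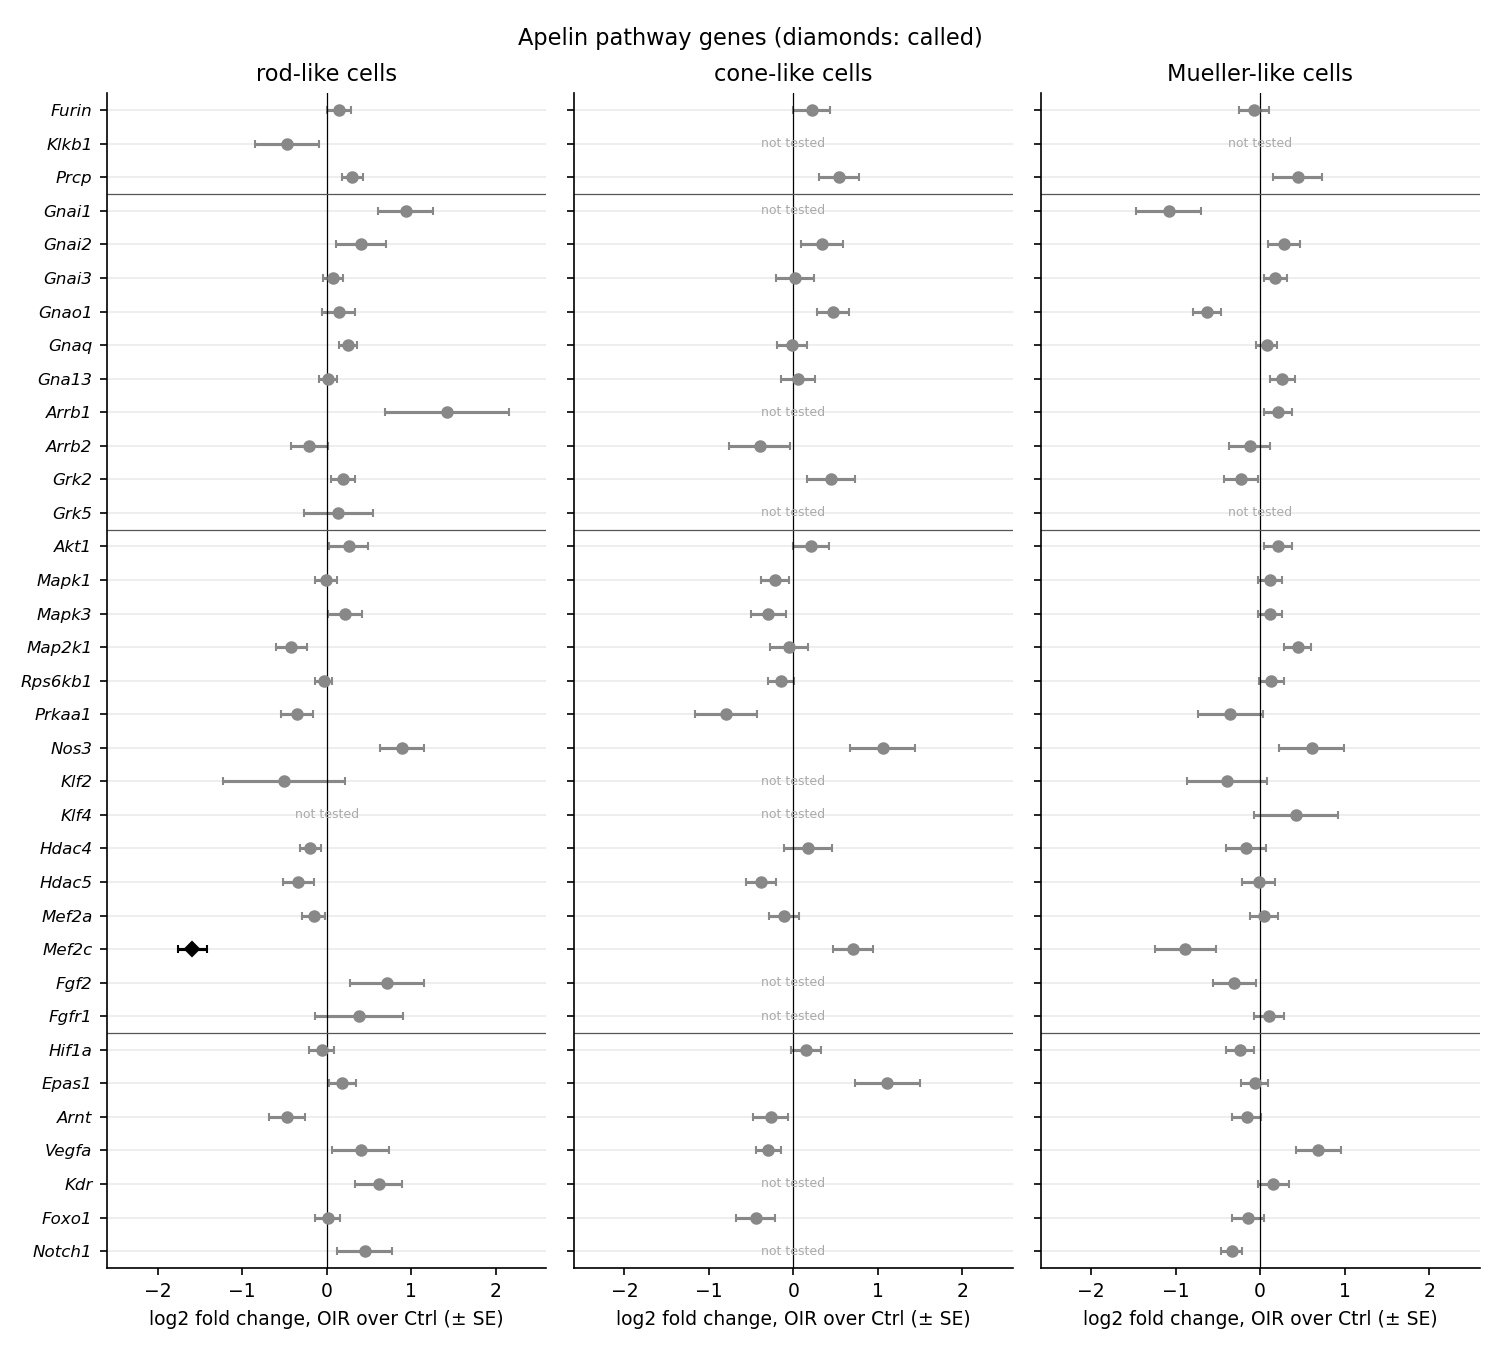
Log2 fold change of OIR over Ctrl for the pathway genes tested in at least 1 of the plotted cell types (points, bars are SE from edgeR, 3 against 3 samples) in rod-like, cone-like and Müller-like cells, ordered from peptide processing at the top through receptor coupling and downstream effectors to regulators. Mef2c in rod-like cells, at -1.59, is the called gene and is drawn as a diamond.

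The genes whose pattern over cell types and samples was most like each apelin gene were found by Pearson correlation of log2(CPM + 10) over 54 sums, among 15647 genes. The sums share libraries and cell types, so that these values are a description. For Apela they were Gm35715 (r = 0.87), Gm36210 (0.86), Krt42 (0.86), 5430419D17Rik (0.86) and Gm15348 (0.85), which were highest in cone-like cells. Apln was followed most closely by Tnfrsf12a (0.84), Flnc (0.78), Cdkn2b (0.78), 2900026A02Rik (0.77) and Adm (0.77). Of these, Tnfrsf12a was highest in Müller-like cells and the others in VEC-like cells. The values for Aplnr were higher, with Sox7 (0.99), Bcl6b (0.99), C130074G19Rik (0.98), Cd109 (0.98) and Slc38a5 (0.97), all highest in VEC-like cells. Only the VEC-like sums of OIR replicate 1 and Ctrl replicates 1 and 3 were large enough to enter, and the Aplnr values rest largely on them.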

How the data were processed

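Single-cell RNA was read from 3 OIR and 3 Ctrl samples by 10x 3' libraries. The deposited values are whole UMI counts that the authors did not normalize, from Cell Ranger (matrix headers 3.1.0, labels mm10). Depth limits precision most in VEC-like cells. The 3 genes and the gene lists were chosen with earlier results of these data known.

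Cells with 500 to 5000 genes and at most 20% mitochondrial counts were integrated over 2 datasets and clustered with Seurat 5.3.0 in R 4.3.3 (2000 variable genes, 15 principal components, 20 neighbours, Louvain resolution 0.5), and the 23 clusters were named from marker lists. Counts were summed per sample and type. Sums were tested with edgeR 4.0.16 (TMM, filterByExpr, quasi-likelihood, Benjamini-Hochberg adjusted p under 0.05, absolute log2 fold change from 0.25 up), a test that was run on simulated data first. DESeq2 1.42.0 was an alternative. Single values were compared by exact sign-flip permutation (numpy 2.4.6, Python 3.11.15), and the Poisson intervals came from SciPy 1.17.1. Thinned shares are expected shares at 1000 UMIs, without shallower cells. The highest Scrublet scores (scanpy 1.11.5), 0.8% per 1000 barcodes, were removed in an alternative, and doublets were otherwise left in. By plan, named pathway genes were those called, at most 6 per type, but uncalled pathway genes were also named. For likeness, the 5 closest genes with at least 50 UMIs were named, over sums of at least 10 cells and 50000 UMIs. For vessel lists the plan was at most 4 genes by UMIs. Further genes were named beyond that plan, some of them after their values were seen. Other alternatives were clustering without integration, a 10% mitochondrial limit, cells of at least 1000 UMIs, group sums, VEC-like cells with a Cldn5 UMI, no filter on low counts, the replicate number as a block and each sample left out. Added after the data were seen were no upper gene limit, replicates 2 and 3 alone, and every alternative for Apln in Müller-like cells, the hypoxia list and the comparisons inside samples. Equal replicate numbers deviated together in rod-like sums (r = 0.541, 0.221 and 0.474). So did OIR replicate 3 with Ctrl replicate 2 (0.370) and OIR replicate 2 with Ctrl replicate 3 (0.197). The unequal pairs that held a replicate 1 gave -0.532 to -0.258. In cone-like sums the equal pairs were positive but weaker (r = 0.224, 0.0775 and 0.118). OIR replicate 3 with Ctrl replicate 2 (0.165) and OIR replicate 2 with Ctrl replicate 1 (0.0270) were also positive there. The equal pair of replicate 2 in Müller-like sums (-0.0808) and that of replicate 1 in VEC-like sums (-0.130) were negative. The labels name no shared source. A withheld item is not reported here.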

Additional observations from a re-analysis of the deposited data

Results flagged for a closer look

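Barcodes with more than 5000 detected genes were outside the comparisons, and their Apln and Aplnr UMIs, summed over each group, were more in OIR than in Ctrl. The 261 OIR barcodes over the limit held 452 Apln UMIs, against 67 in 165 Ctrl barcodes, and 214 Aplnr UMIs, against 98 in Ctrl. Of these, 308 and 53 Apln UMIs were in barcodes most like VEC-like cells, as were the 214 and 98 Aplnr UMIs. A single barcode held 126 Apln UMIs in OIR replicate 3 and another held 90 in OIR replicate 1. The order did not hold in each sample, since the 45 Apln UMIs of OIR replicate 2 and the 3 and 47 Aplnr UMIs of OIR replicates 2 and 3 were below the 53 and 98 of Ctrl replicate 1. Apela had 27 UMIs in both groups. Whether such barcodes hold more than a single cell was not tested.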

How the results depend on the processing

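The differences of OIR minus Ctrl in CPM for Apela in rod-like and cone-like cells and for Apln in Müller-like cells kept their direction under all 13 alternatives each. With 1 sample left out they ranged from -11.4 to -9.72, from -49.2 to -35.3 and from 28.6 to 56.8. In VEC-like cells neither direction held. Apln (12.1) became -3.35 at 10% mitochondrial counts, -60.7 in replicates 2 and 3, 144 by group sums and 215 without the gene limit, and ranged from -46.1 to 41.2 with 1 sample left out. Aplnr (-33.4) became 132 by group sums and 4.38 in cells with a Cldn5 UMI, and ranged from -109 to 50.04. The cause was not tested, but only 29 OIR cells stood behind these values.

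The opsin difference ranged from 22.8 to 31.1 CPM and the reporter difference in Müller-like cells from 806 to 1161 CPM with 1 sample left out. The exact p was then 0.0625, the smallest that 5 samples allow.

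In rod-like cells 143 genes were called higher and 91 lower. DESeq2 called 327 and 318, no filter on low counts 283 and 203 and the replicate block 579 and 535, with 3 pathway genes. Leaving out 1 sample gave 7 to 558 and 10 to 501, with the lowest counts without Ctrl replicate 2 and the highest without Ctrl replicate 1, and 0 to 4 pathway genes. The 4 were Mef2c and Arnt, lower, and Gnai2 and Arrb1, higher. Without Ctrl replicate 1, the Ctrl group held only the female samples and the OIR group only male ones. The part of sex in these counts was not tested. In cone-like cells the counts were 77 and 44, 200 and 112 without the filter, 210 and 157 with the replicate block, and 38 to 156 and 18 to 102 with 1 sample left out (fewest without OIR replicate 3, most without Ctrl replicate 1). Epas1 was the 1 pathway gene called without the filter and without OIR replicate 1 (0 to 1). In Müller-like cells the counts were 174 and 118, 381 and 300 without the filter, 190 lower with the block, and 48 to 221 and 19 to 249 with 1 sample left out (fewest without OIR replicates 1 and 3, most without Ctrl replicate 1). DESeq2 called 1 pathway gene there and no filter 2, Gnao1 and Vegfa. Of the hypoxia reporters, 4 were called there, 5 without the filter and 1 to 4 with 1 sample left out. In VEC-like cells 0 and 3 genes were called, 1 and 5 by DESeq2, 39 and 15 without the filter, 0 lower with the block, and 0 to 6 and 0 to 7 with 1 sample left out. Pathway counts in VEC-like and Müller-like cells stayed at 0 throughout the samples left out. With the block, 1 hypoxia reporter was called higher, Ndrg1, and 1 lower, Ankrd37, in both rod-like and cone-like cells, where 0 were called without it. It moved no other of these counts by over 1.5 times.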
